A study of Homo sapiens with 6 samples.

Results

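The genes described here are the neighbours of PIK3CB and RAP2B on the long arm of chromosome 3, bands 3q22 to 3q25, in the SUM159 human breast cancer cell line. The list names 59 genes, of which 48 were measured with a symbol among 14884 genes with a symbol and 53617 transcript clusters on the array. They were chosen by the difference between miR-1287-5p overexpression and control on these same arrays, where genes around PIK3CB and RAP2B had lower signals. Every value of that contrast given for them is therefore a description, and the few counts that use a p are set beside the share over all transcript clusters and support nothing. The other 11 listed genes (ATP1B3, TRPC1, AGTR1, EIF2A, TSC22D2, P2RY1, PLCH1, SLC33A1, KCNAB1, SSR3 and GFM1), PIK3CB, RAP2B and the miR-1287 host locus have no symbol here and were not analysed.

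The array study asked which mRNAs change when miR-1287-5p is stably raised in triple negative breast cancer cells. SUM159 cells were transduced with a lentivirus carrying the mature miR-1287-5p form and GFP (miR-1287-5p overexpression, 3 samples) or with the matching GFP virus lacking the miRNA (control, labelled empty vector, 3 samples). Both groups thus went through transduction and puromycin selection, and both derive from 1 cell line, with each sample described as a biological replicate of the transduced line. Total RNA of each sample was hybridized to 1 Affymetrix Human Gene 2.0 ST array, which gives a log2 signal for each transcript cluster, the array's unit for a gene.

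A mature miRNA guides an Argonaute protein to messenger RNAs, mostly by pairing of its seed, bases 2 to 8 counted from the 5′ end, and the bound mRNAs tend to be translated less and degraded sooner. Each such contact is with a single mRNA, and genes that lie side by side on a chromosome need not share a seed match. The members have unrelated functions, from DNA damage signalling (ATR) and stalled replication forks (HLTF) to RNA splicing and decay, Ras signalling, actin bundling and membrane traffic. The miRNA is shown because it is what differs between the groups by design, with its opposite arm for comparison. The seed is in capitals, and both are RefSeq sequences of GRCh38.p14, encoded at chr10:98395271-98395292 and chr10:98395232-98395253 on the minus strand.
hsa-miR-1287-5p: uGCUGGAUcagugguucgaguc
hsa-miR-1287-3p: cUCUAGCCacagaugcagugau
The DNA letters that pair with the seed of the 5p arm are ATCCAGC. Transcript sequences were not analysed here, so no site was searched in the members.

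The 6 arrays had median log2 signals of 4.33 to 4.42 and did not spread evenly around their group means. Control replicates 1 and 2 were the least similar pair (Pearson r = 0.970 across all transcript clusters, against 0.973 to 0.988 for the other 14 pairs). The medians of role groups and blocks, some counts and the members with the widest gap between these arrays are therefore also given leaving out either. Of 8 markers measured for SUM159, a triple negative line of mesenchymal character, VIM (mean log2 signal 10.9), CD44 (9.15) and AXL (11.3) were high, KRT14 was at 5.00, and KRT5 (4.32), ESR1 (4.22), PGR (3.63) and the endothelial gene PECAM1 (3.37) lay below the median of all transcript clusters, 4.37; ERBB2 and PTPRC have no symbol here and were not analysed. Genes above that median are called brighter here. In bulk RNA, fewer cells that express a gene and less RNA of it per cell cannot be told apart.

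Most members had lower signals with miR-1287-5p overexpression, by a small amount. The median log2 fold change (overexpression mean minus control mean) of the 48 members was −0.29, and it ran from −0.79 for the actin bundler PLS1 to 0.25 for VEPH1. Below 0 lay 42 of 48 members (87.5%), against 44.5% of all transcript clusters, 48.0% of genes with a symbol and 50.5% of the 10348 brighter ones. The median over all genes with a symbol was 0.011. The members were brighter than genes at large, with a median log2 signal of 6.61 (range 2.47 to 10.1) against 5.56 for all genes with a symbol, and 45 of 48 (93.8%) against 69.5% were brighter ones.

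In few of them did the groups separate. All 3 overexpression arrays lay below all 3 control arrays in 6 members (MSL2, DBR1, TFDP2, PCOLCE2, ZIC1 and TNIK), against 4.33% of all transcript clusters, and above them in 1 (LXN), against 6.88%. The 6 are 12.5% of members, against 6.18% of brighter genes with a symbol and 11.5% of the brighter rest of chromosome 3. At an unadjusted p under 0.05 (limma, two-sided) 4 were lower (DBR1, MSL2, PCOLCE2 and ZIC1, background 2.44%) and 0 higher (background 2.96%), and the methods' t-test gave 5 lower. At an adjusted p under 0.05, 0 of 48 were called, where the array as a whole has 2 lower calls (0.00373%). At least 1.5-fold lower were 4 members (PLS1, ZIC1, HLTF and STAG1, background 1.93%), and in 3 of these 4 the groups overlap. That count was 1 (ZIC1) without control replicate 2 and 18 without control replicate 1. Since the members were chosen on this contrast, nothing is read from these counts.

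**Figure D1:**
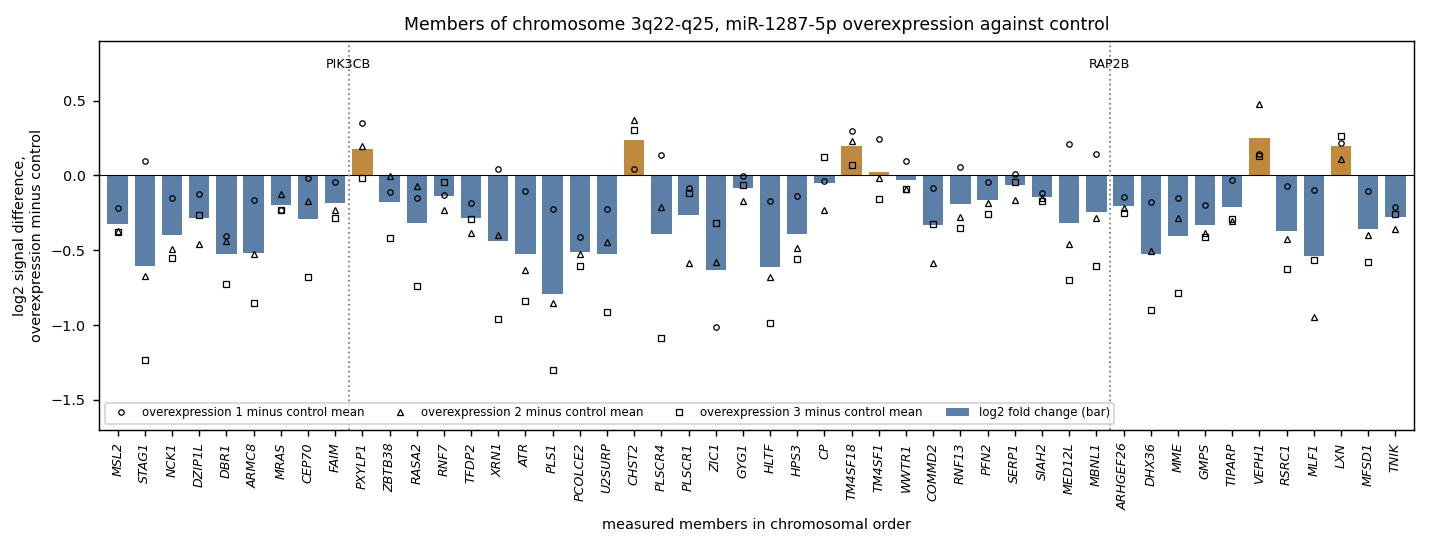
Bars give the log2 fold change of each measured member (overexpression mean minus control mean, n = 3 arrays each) in RefSeq order along the chromosome, blue below 0 and brown above, with each overexpression array minus the control mean as an open point; dotted lines mark where PIK3CB and RAP2B lie. Bars below 0 stand in 42 of 48 members, and the points of 1 member often spread more widely than its bar is tall.

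Chromosomal order did not sort the members into a low and a level part. Taken in 4 consecutive blocks of 12, the median log2 fold change was −0.30 from MSL2 to RASA2, −0.41 from RNF7 to GYG1, −0.15 from HLTF to MED12L and −0.31 from MBNL1 to TNIK, with 10 or 11 of 12 below 0 in each. In the same order these medians were −0.09, −0.10, −0.04 and −0.07 without control replicate 2, and −0.46, −0.63, −0.18 and −0.46 without control replicate 1. PIK3CB lies between FAIM (−0.19) and PXYLP1 (0.18), and RAP2B between MBNL1 (−0.25) and ARHGEF26 (−0.20), so the measured members closest to either were not those with the most negative values. TNIK lies apart from the rest, with 37 other genes with a symbol between it and MFSD1, and without it the median over 47 members was −0.29.

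The chromatin and transcription genes, with ATR and HLTF placed among them, were the largest group. Of 12 listed, 11 were measured and all 11 lay below 0, with a median of −0.32. That median was −0.13 with 7 below 0 without control replicate 2, and −0.38 without control replicate 1. In 3 of the 11 every overexpression array lay below every control, against 6.18% of brighter genes with a symbol. Nothing is read from this count. ZIC1, a zinc finger transcription factor of neural development, read 4.89, 5.06 and 5.04 in control replicates 1, 2 and 3 and 3.99, 4.42 and 4.68 in overexpression replicates 1, 2 and 3 (log2 fold change −0.63, SE 0.19). The controls differed by under 0.2 and every overexpression array lay below them, with overexpression replicate 1 lowest, while the level is close to the array median. MSL2, a ubiquitin ligase subunit of the MSL histone acetyltransferase complex and the first member in order, read 8.34, 8.43 and 8.52 in the controls and 8.21, 8.06 and 8.06 with overexpression (−0.32, SE 0.13). TFDP2, the DNA-binding partner of E2F factors, was named after its values were seen and read 7.92, 7.97 and 7.91 against 7.75, 7.55 and 7.64 (−0.29, SE 0.12). In both, the arrays of a group lay close together and the groups did not overlap.

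Members of the same group with similar differences looked different array by array. ATR, the kinase that signals replication stress, read 5.60, 8.03 and 7.02 in the controls and 6.78, 6.25 and 6.04 with overexpression (−0.53, SE 0.56). HLTF, a helicase-like ubiquitin ligase that acts at stalled forks, read 5.69, 8.62 and 7.67 against 7.15, 6.65 and 6.34 (−0.61, SE 0.67). In both, control replicate 2 was the highest and control replicate 1 the lowest of the 6 arrays, and all 3 overexpression arrays lay between them. A dimmer transcript cluster with the HLTF symbol (mean 4.87) had controls of 4.62, 4.80 and 4.88 and overexpression values of 4.92, 5.21 and 4.81, a difference of 0.22. Whether the 2 clusters read the same transcript or strand was not checked, so this value says nothing sure about HLTF mRNA. The cohesin subunit STAG1, named after its values were seen, had similarly wide controls (5.32, 7.28 and 6.39 against 6.43, 5.65 and 5.10, −0.60, SE 0.52), and its difference was −0.13 without control replicate 2 and −1.11 without control replicate 1. WWTR1, the Hippo pathway coactivator TAZ, read 6.07, 6.13 and 5.99 against 6.16, 5.97 and 5.97, a difference of −0.03 (SE 0.13) that is smaller than the spread among the overexpression arrays (SD 0.11). The other measured genes of the group were MLF1 (−0.54), the Mediator subunit paralogue MED12L (−0.32), TIPARP, an ADP-ribosyltransferase of the aryl hydrocarbon receptor pathway (−0.21), and the methyl-DNA-binding zinc finger protein ZBTB38 (−0.18), all with overlapping groups.

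The RNA processing and decay genes had the lowest median of the 7 role groups, −0.48, with all 6 measured of 8 listed below 0. Leaving out control replicate 2, that median was −0.02, with 3 of 6 below 0 and no longer the lowest of the groups, and without control replicate 1 it was −0.93. Among them the G-quadruplex helicase DHX36 read 6.36, 8.56 and 8.01 in the controls and 7.47, 7.14 and 6.75 with overexpression (−0.53, SE 0.53). U2SURP, a protein of the U2 splicing particle, read 7.89, 10.2 and 9.31 against 8.93, 8.70 and 8.23 (−0.53, SE 0.54). The control arrays of these genes span more than 2 log2 units, over 4 times the difference between the groups. The differences were −0.07 for DHX36 and 0.02 for U2SURP without control replicate 2, and −1.17 and −1.16 without control replicate 1. DBR1, the debranching enzyme of intron lariats, was named after its values were seen and had the same difference with a narrow spread: 8.19, 8.34 and 8.18 against 7.83, 7.79 and 7.51 (−0.53, SE 0.14). The mRNA exonuclease XRN1 (−0.44), the splicing factor MBNL1 (−0.25) and the splicing regulator RSRC1 (−0.37) were of the wide kind, with controls 1 and 2 apart by 2.50, 1.56 and 1.39. Their differences were 0.14, 0.12 and −0.06 without control replicate 2, and −1.11, −0.66 and −0.75 without control replicate 1. A dimmer transcript cluster with the MBNL1 symbol (mean 6.12) lay at 0.07, with controls 1 and 2 apart by only 0.12.

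Ubiquitin ligases and protein turnover genes lay below 0 in 6 of 6, with a median of −0.19 (−0.16 without control replicate 2, −0.36 without control replicate 1). ARMC8, a subunit of the CTLH ubiquitin ligase, read 7.46, 8.37 and 7.86 against 7.73, 7.37 and 7.04 (−0.52, SE 0.27), and COMMD2, a COMM domain protein, 6.63, 7.32 and 7.28 against 6.99, 6.49 and 6.75 (−0.33, SE 0.23). In both, control replicate 1 lay within the overexpression range. The differences were −0.28 and −0.21 without control replicate 2, and −0.74 and −0.55 without control replicate 1. The RING finger proteins RNF7 (−0.14), SIAH2 (−0.15) and RNF13 (−0.19) and the apoptosis inhibitor FAIM (−0.19) had smaller differences.

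Of 11 GTPase, adaptor, kinase and receptor genes, 6 were measured, 5 of them below 0 (median −0.24, −0.05 without control replicate 2 and −0.37 without control replicate 1). The adaptor NCK1, which links receptor tyrosine kinases to actin, read 6.02, 7.53 and 6.80 against 6.63, 6.29 and 6.23 (−0.40, SE 0.36). RASA2, a GTPase-activating protein for Ras, read 5.17, 6.78 and 6.19 against 5.90, 5.98 and 5.31 (−0.32, SE 0.40), with control replicate 1 again the lowest array. These differences were −0.03 and 0.05 without control replicate 2, and −0.78 and −0.76 without control replicate 1. The kinase TNIK, last in order, read 5.85, 6.28 and 6.03 against 5.84, 5.70 and 5.80 (−0.28, SE 0.15), where the groups are apart by only 0.01. Its difference was −0.16 without control replicate 2 and −0.38 without control replicate 1. The Ras family member MRAS (−0.20) and ARHGEF26 (−0.20) also lay below 0. VEPH1, a PH domain protein, had the highest value of all members, with 4.23, 4.62 and 4.41 against 4.57, 4.90 and 4.55 (0.25, SE 0.16) and overlapping groups.

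The 4 cytoskeleton, centrosome and cilium genes all lay below 0 (median −0.29, −0.22 without control replicate 2 and −0.53 without control replicate 1). PLS1, a plastin that bundles actin, had the most negative difference of any member: 5.80, 7.95 and 7.22 in the controls and 6.76, 6.14 and 5.69 with overexpression, or 1.73-fold lower (log2 −0.79, SE 0.53). Control replicate 1 lay between overexpression replicates 2 and 3, and without control replicate 2 the difference was −0.31, against −1.39 without control replicate 1. The centrosomal protein CEP70 read 6.66, 8.21 and 7.43 against 7.42, 7.26 and 6.75 (−0.29, SE 0.38). Its difference was 0.10 without control replicate 2 and −0.68 without control replicate 1. The cilium gene DZIP1L (−0.28) and the profilin PFN2 (−0.16) had narrower spreads, with SDs of 0.24 and 0.053 among the controls.

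Secretory pathway and membrane genes included TM4SF1, which with WWTR1 lay nearest to 0. HPS3, a subunit of a complex for lysosome-related organelles, read 9.79, 10.9 and 10.3 against 10.2, 9.86 and 9.79 (−0.39, SE 0.28), and the phospholipid scramblase family member PLSCR4 5.18, 6.81 and 5.91 against 6.10, 5.76 and 4.88 (−0.39, SE 0.45). These became −0.12 and 0.03 without control replicate 2, and −0.67 and −0.78 without control replicate 1. The tetraspanin-like TM4SF1 was bright in every sample, at 9.77, 10.1 and 9.97 against 10.2, 9.93 and 9.79 (0.02, SE 0.16). Its paralogue and neighbour TM4SF18, dim at 3.05, 3.25 and 3.28 against 3.49, 3.43 and 3.27, lay at 0.20 (SE 0.14). PLSCR1 (−0.26), the lysosomal transporter MFSD1 (−0.36) and SERP1 of the endoplasmic reticulum (−0.07) complete the 7 measured of 10, of which 5 lay below 0. A dimmer transcript cluster with the SERP1 symbol (mean 5.94) lay at −0.14. In it control replicate 2 was 1.13 above control replicate 1, against 0.36 in the cluster used. The median of the 7 was −0.26, and it was 0.003 without control replicate 2 and −0.42 without control replicate 1.

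Secreted proteins and metabolic enzymes had a median of only −0.07, with 5 of 8 below 0 (0.02 without control replicate 2, −0.07 without control replicate 1). PCOLCE2, which enhances procollagen processing, read 6.53, 6.71 and 6.65 against 6.22, 6.11 and 6.02 (−0.51, SE 0.13), with groups well apart. The membrane peptidase MME (neprilysin) read 5.75, 8.33 and 7.39 against 7.0, 6.87 and 6.37 (−0.41, SE 0.59), with all overexpression arrays above control replicate 1. The sulfotransferase CHST2 ran the other way, at 6.29, 5.74 and 5.84 against 6.0, 6.33 and 6.26 (0.24, SE 0.19), and here control replicate 1 was the highest control. LXN, an inhibitor of carboxypeptidases named after its values were seen, was the single member without overlap above the controls, at 2.45, 2.26 and 2.42 against 2.59, 2.49 and 2.64, among the dimmest signals of the list. The nucleotide enzyme GMPS (−0.33), glycogenin GYG1 (−0.08), ceruloplasmin CP (−0.05, the dimmest member) and the xylose phosphatase PXYLP1 (0.18) make up the rest.

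The members' array-to-array pattern within each group was shared and larger than the difference between the groups. The mean log2 signal over the 48 members was 6.48, 7.26 and 6.96 in control replicates 1, 2 and 3 and 6.83, 6.6 and 6.47 in overexpression replicates 1, 2 and 3. The overexpression means lay inside the range of the control means, except that overexpression replicate 3 was just below control replicate 1. Control replicate 1 was the lowest control in 38 members and control replicate 2 the highest in 36, and overexpression replicate 1 was the highest and replicate 3 the lowest of its group in 39 and 34. Correlated over the 6 deviations from the group means with the mean of the other members, a member had a median r of 0.88, above 0.8 in 28 and below 0 in 7 (CHST2, SIAH2, MRAS, LXN, GYG1, ZIC1 and CP). These correlations share the same 6 arrays.

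**Figure D2:**
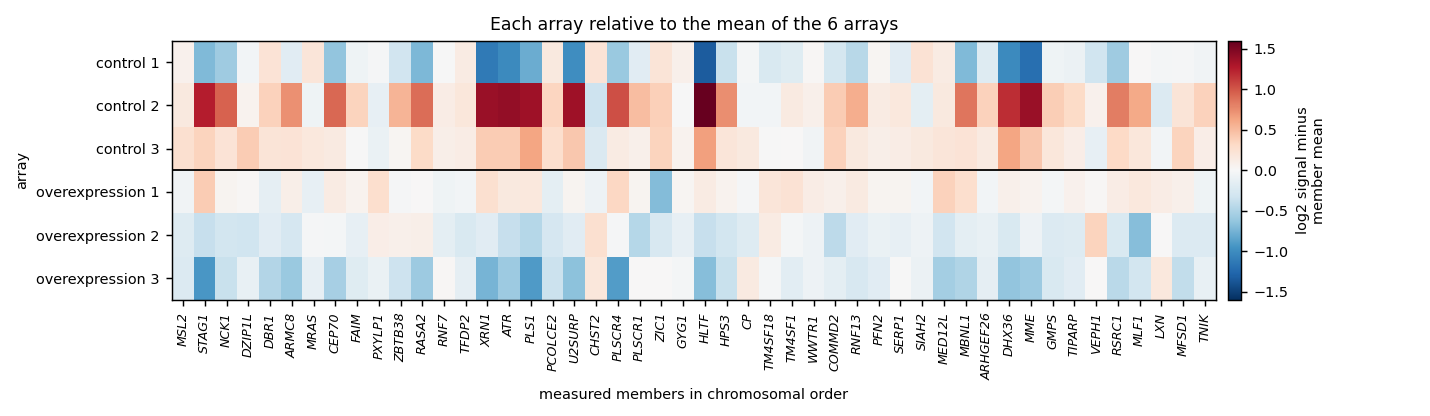
Each column is a member in chromosomal order and each row an array, coloured by its log2 signal minus the member's mean over the 6 arrays (red above, blue below), with a line between the groups. Control replicate 2 is the reddest row and highest of all 6 arrays in 33 of 48 members. Control replicate 1 is blue in most of these columns but above the member's mean in others, among them DBR1, TFDP2, PCOLCE2 and ZIC1. Overexpression replicate 3 is mostly blue.

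The size and sign of the difference depended on which arrays were compared. Of the 9 pairs of 1 overexpression and 1 control array, the median over members was −0.43, −0.57 and −0.59 for overexpression replicates 1, 2 and 3 minus control replicate 2, and −0.15, −0.37 and −0.45 minus control replicate 3. Minus control replicate 1 it was 0.23, 0.04 and −0.02, and overexpression replicate 1 was above that array in 37 of 48 members. Without control replicate 2 the median log2 fold change over members shrank from −0.29 to −0.08, with 29 below 0, and without control replicate 1 it was −0.44, with 43 below 0. Without control replicate 2, 8 of the 22 members named by rule changed sign, among them ATR (0.05), HLTF (0.03), U2SURP (0.02) and MME (0.18). So did ZBTB38 (0.05), XRN1 (0.14), RNF13 (0.05), SERP1 (0.003) and MBNL1 (0.12), which were named outside that rule. Without control replicate 1, ATR, HLTF, MME and RNF13 were at −1.17, −1.43, −1.11 and −0.46.

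The gap between control replicates 1 and 2 divided the members, a split made after the values were seen. In 16 members (STAG1, NCK1, CEP70, RASA2, XRN1, ATR, PLS1, U2SURP, PLSCR4, HLTF, HPS3, RNF13, MBNL1, DHX36, MME and RSRC1) control replicate 2 lay more than 1 log2 unit above control replicate 1, which is 33.3% of members, against 10.9% of brighter genes and 15.4% of the brighter rest of chromosome 3. Their array means were 6.46, 8.36 and 7.61 in the controls and 7.41, 7.04 and 6.66 with overexpression. All 16 lay below 0, with a median of −0.40, yet in 0 were the groups apart, and in 12 control replicate 1 was below every overexpression array. Without control replicate 2 their median was 0.03, and without control replicate 1 −0.94. The 1127 brighter genes anywhere in the genome with such a gap, which include these 16, had values close to theirs, with a median of −0.34, 95.3% below 0, 0.355% without overlap, 0.04 without control replicate 2 and −0.77 without control replicate 1.

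In 25 members control replicates 1 and 2 lay within 0.5 of each other. Their array means were 6.53, 6.66 and 6.65 in the controls and 6.54, 6.40 and 6.39 with overexpression. The median log2 fold change was −0.19, with 20 below 0, and it was −0.19 without control replicate 1 and −0.14 without control replicate 2. These 25 hold all 6 members whose overexpression arrays were below the controls (24.0%). The 7274 brighter genes with a gap this small had a median of 0.03, with 42.2% below 0 and 8.10% without overlap below the controls. The 336 on the rest of chromosome 3 had a median of −0.03, with 56.8% below 0 and 16.7% without overlap below the controls. Without overlap above the controls were 698 of the 7274, 16 of the 336 and 1 of the 25 (LXN). Another 6 members (ARMC8, ZBTB38, PLSCR1, COMMD2, ARHGEF26 and MLF1) had a gap of 0.5 to 1 and a median of −0.30, and CHST2 had a gap of −0.55.

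**Figure D3:**
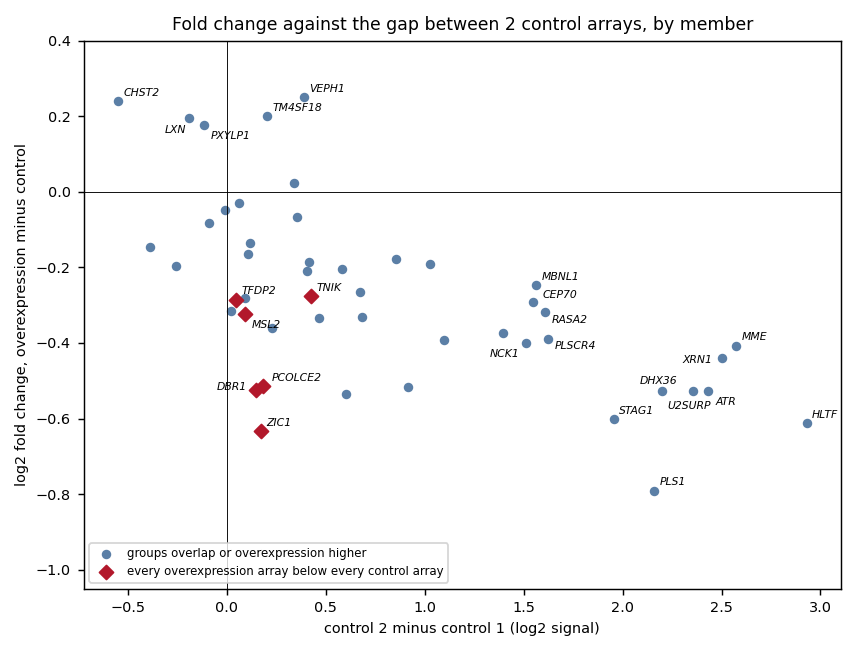
Each point is 1 of the 48 members, with control replicate 2 minus control replicate 1 on the horizontal axis and the log2 fold change on the vertical axis, both on the log2 scale; red diamonds are the members whose overexpression arrays all lay below all controls. The members at the far right, with HLTF at a gap of 2.93, have low fold changes but overlapping groups, and all 6 diamonds lie at gaps under 0.5.

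Across the 48 members the log2 fold change ran with this gap (Pearson r = −0.62, Spearman correlation −0.64), and the gap ran with overexpression replicate 1 minus replicate 3 (0.75 and 0.75). The first of these shares the control arrays on both axes, and the second has no array in common. Overexpression replicate 1 lay above replicate 3 in 43 members (89.6%) against 51.2% of brighter genes, and control replicate 2 above replicate 1 in 41 (85.4%) against 43.6%. The gap also rose with the length of the gene on the chromosome (0.26 and 0.41 over spans of 4.24 to 436 kb). Median spans were 123 kb in the 16 members with a gap above 1 and 40.2 kb in the 25 with close controls. The fold change was weakly related to the mean signal (−0.22 and −0.11). Members are not independent of each other, and no test was made.

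**Figure D4:**
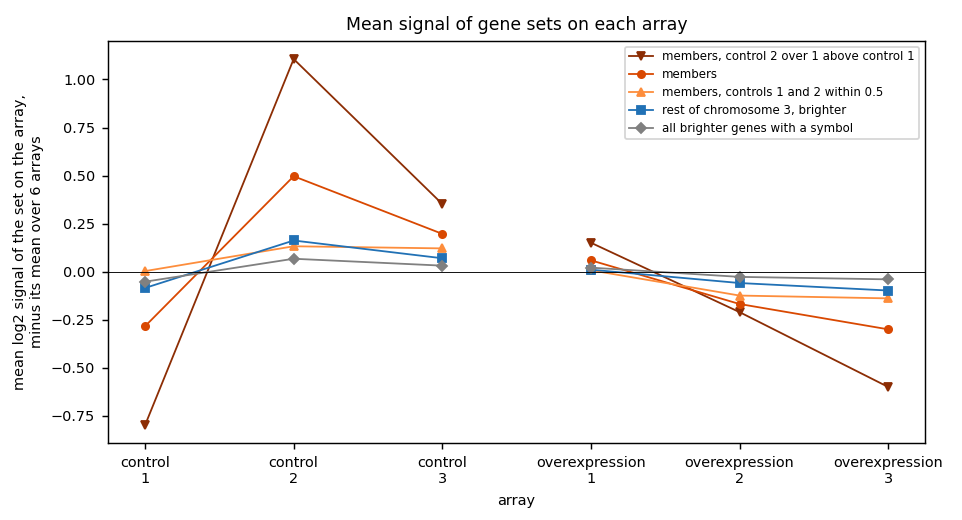
The mean log2 signal of each gene set on each array is plotted minus the set's mean over the 6 arrays, with lines only joining the points of 1 set within a group. The 16 wide-gap members span from −0.80 in control replicate 1 to 1.11 in control replicate 2, the 25 members with close controls stay between −0.14 and 0.13, and the rest of chromosome 3 and all brighter genes follow the same zigzag at smaller size.

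Other genes of chromosome 3 were set beside the members on the same arrays. The 789 measured genes that are no members had a median log2 fold change of −0.02, with 54.6% below 0, and the 494 brighter of them −0.07, with 63.8% below 0. The brighter genes before MSL2 had a median of −0.05 (387 genes) and those after TNIK −0.20 (71 genes, 58 below 0). Between MSL2 and MFSD1 lie 51 measured genes that are not on the list, mostly dim. Their 15 brighter ones had a median of −0.17, with 13 below 0 and 5 without overlap below the controls (33.3%, against 6.18% of brighter genes with a symbol). The 21 brighter genes between MFSD1 and TNIK had −0.36, but with 10 of 21 in the wide-gap class. Their median was −0.01 without control replicate 2 and −0.61 without control replicate 1. Lower values thus occur past the last members too, and the edges of the region are those of the list.

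At the 2 ends, CEP63, the last brighter gene before MSL2 and a centrosomal protein like CEP70, read 5.57, 7.06 and 6.52 against 6.43, 6.08 and 5.74 (−0.30), while KY and EPHB1 beside it were dim, at 0.22 and 0.27. After TNIK, MIR569 and TMEM212 were dim, at 0.03 and 0.10, and FNDC3B read 9.50, 10.1 and 9.91 against 9.55, 9.38 and 9.19 (−0.48, SE 0.20). The 25 brighter genes on each side of SMAD2 and of LAYN, other genes the study followed, had medians of −0.27 and −0.12, with 42 and 37 of 50 below 0. Without overlap below the controls were 13 and 8 (26% and 16%, against 6.18% of brighter genes with a symbol), and above the controls 1 and 1. Without control replicate 2 these medians were −0.12 and −0.10, against −0.08 for the members. Without control replicate 1 they were −0.35 and −0.23, against −0.44 for the members.

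**Figure D5:**
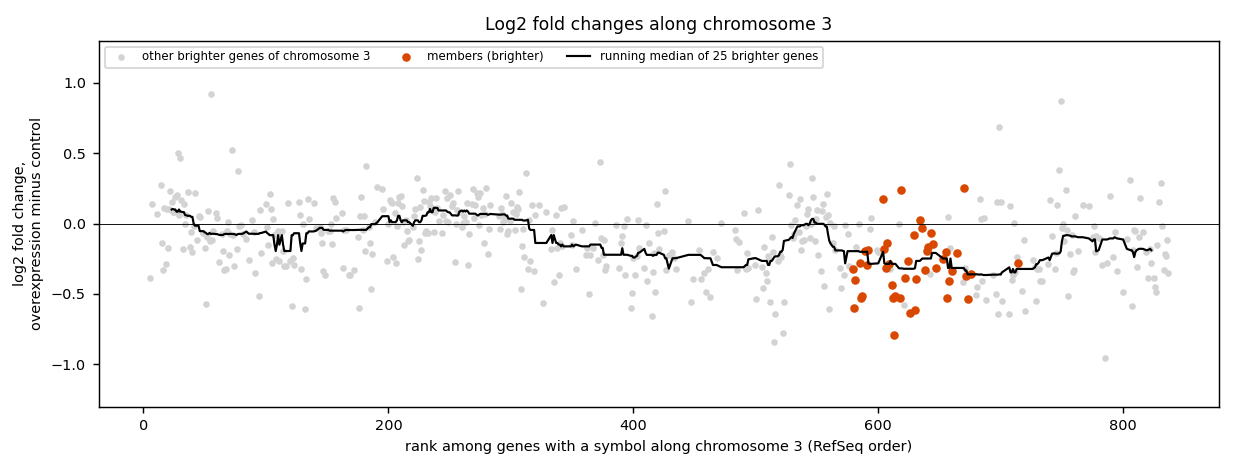
Each point is a brighter gene of chromosome 3 at its rank in RefSeq order, with the log2 fold change on the vertical axis, members in orange and the other genes in grey, and the line is the running median of 25 brighter genes. The members lie mostly below 0, in a stretch where the line is near −0.3, and the line is also below 0 over other stretches of the chromosome, among them ranks between 400 and 500.

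The promoters of 44 of the 48 measured members were matched in the RefSeq table, as 250 bases before to 50 after each gene's start. They had a median G+C content of 64.5% and 27.5 CpG dinucleotides, against 58.7% and 14 over 34796 promoters of the table. Those were not limited to brighter or measured genes, while 45 of the 48 members were brighter, and no share among brighter genes alone is given. Searched on both strands, GGGCGG (bound by SP and KLF factors) occurred in 31 of 44 (70.5%, 44.9% of all promoters), CCAAT (NF-Y) in 19 (43.2%, 34.6%), CCGGAAG (ETS factors) in 7 (15.9%, 10.2%) and TATAAA (the TATA box) in 4 (9.09%, 11.6%). The median G+C content was 64.7% in the 15 matched members with a wide control gap and 64.3% in the other 29. GGGCGG occurred in 13 of these 15 and 18 of these 29, CCAAT in 8 and 11, CCGGAAG in 3 and 4, and TATAAA in 1 and 3. The promoters of ATR and HLTF, members with wide control gaps, and of TM4SF1, a bright member with a difference near 0, are shown with these motifs in capitals on either strand, at chr3:142578684-142578983, chr3:149086484-149086783 and chr3:149377600-149377899 of GRCh38.p14, each on the minus strand.
ATR: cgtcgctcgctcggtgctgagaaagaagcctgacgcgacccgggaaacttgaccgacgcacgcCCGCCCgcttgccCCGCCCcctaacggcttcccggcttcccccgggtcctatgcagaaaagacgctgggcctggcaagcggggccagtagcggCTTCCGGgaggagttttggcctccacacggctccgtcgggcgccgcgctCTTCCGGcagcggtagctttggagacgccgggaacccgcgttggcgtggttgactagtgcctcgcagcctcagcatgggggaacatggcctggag
HLTF: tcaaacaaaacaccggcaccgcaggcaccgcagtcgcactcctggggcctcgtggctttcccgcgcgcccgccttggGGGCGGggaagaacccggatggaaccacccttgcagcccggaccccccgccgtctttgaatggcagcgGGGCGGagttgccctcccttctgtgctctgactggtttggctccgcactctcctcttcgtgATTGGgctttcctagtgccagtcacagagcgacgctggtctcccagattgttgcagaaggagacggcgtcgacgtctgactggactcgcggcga
TM4SF1: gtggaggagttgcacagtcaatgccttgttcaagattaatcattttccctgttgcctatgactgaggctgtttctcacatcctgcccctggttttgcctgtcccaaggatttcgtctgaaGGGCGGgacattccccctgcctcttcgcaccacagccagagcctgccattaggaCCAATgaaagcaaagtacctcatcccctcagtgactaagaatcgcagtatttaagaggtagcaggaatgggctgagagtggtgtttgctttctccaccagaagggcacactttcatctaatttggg
ATR has 68.3% G+C and 34 CpG with 2 GGGCGG and 2 CCGGAAG matches, HLTF 64.7% and 27 with 2 GGGCGG and 1 CCAAT, and TM4SF1 50.0% and 4 with 1 GGGCGG and 1 CCAAT. A match is a description of letters only.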

How the data were processed

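RNA of 3 control and 3 miR-1287-5p overexpression samples of SUM159 cells was measured with 1 array each. The authors made the deposited log2 values by RMA in Partek 6.6, which corrects background, normalizes quantiles over all arrays and summarizes probes to 1 value per transcript cluster. A filtering step is named but not described. Quantile normalization gives the arrays like distributions, so only differences relative to the other genes are seen, and the number of arrays limits precision.

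Symbols came from the platform's annotation (1 symbol for 16098 of 53617 transcript clusters), and RefSeq genes of GRCh38.p14 gave current names and chromosomal order. The transcript cluster with the highest mean over 6 arrays stood for a gene. All transcript clusters entered 1 limma model (version 3.58.1, R 4.3.3) with moderated statistics by eBayes; p-values are two-sided, were adjusted by Benjamini-Hochberg over all transcript clusters and set against 0.05, and the scripts were checked on simulated data. With 3 against 3 arrays, an exact permutation test cannot go below p = 0.1 and was not used.

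Members, role lists, markers and alternatives were chosen with earlier results of these data known. Values are given in full for the 2 members of each role list with the most extreme log2 fold change, plus ZIC1, ATR and WWTR1. Also named are the 3 highest, the first, the last, the 2 nearest 0 and the 3 genes beside each end. Members named beyond this rule were chosen after their values were seen. Alternatives were centred medians, cyclic loess, array weights, a block for the replicate number, limma's intensity trend, the methods' t-test, brighter genes only, the mean over a symbol's transcript clusters and leaving out each array.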

Additional observations from a re-analysis of the deposited data

How the results depend on the processing

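The median log2 fold change of the members was −0.28 to −0.33 under centred medians, cyclic loess, array weights, brighter genes only and the mean over a symbol's transcript clusters, and −0.44 to −0.08 when 1 array was left out, lowest without control replicate 1 and highest without control replicate 2. Members below 0 numbered 41 to 43 under the same settings and 29 to 43 with 1 array left out. Members without overlap below the controls numbered 6 to 31 with 1 array left out (31 without control replicate 1, 17 without overexpression replicate 1), where fewer arrays must separate. Members at an unadjusted p under 0.05 numbered 17 with array weights, which gave control replicate 3 a weight of 7.91 and control replicates 1 and 2 weights of 0.37 and 0.51, and 3 to 23 with 1 array left out (23 without control replicate 1, 7 without overexpression replicate 1). Members at least 1.5-fold lower numbered 1 to 18 with control replicate 2 or 1 left out, and these values and those of role groups and blocks were chosen after seeing the data. No share over all transcript clusters is given for these counts under the same settings, so nothing is read from them. The median of the rest of chromosome 3 was −0.073 over brighter genes only, against −0.02 over all, and −0.029 to −0.0045 with 1 array left out. Of 220 values of the 22 members named by rule under the 10 settings, 14 changed sign. Of these, 8 were without control replicate 2 and the others only in TM4SF1 and WWTR1, which lie near 0.

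Same-numbered samples did not deviate together (r = −0.47, −0.00175 and −0.08 across brighter transcript clusters for numbers 1, 2 and 3). Pairs with unlike numbers ran from −0.44 (control 2 with overexpression 3) to 0.47 (control 2 with overexpression 1). These r cannot show whether same-numbered samples were handled together. With the replicate number as a block, 3 members were lower at an unadjusted p under 0.05 (limma), against 4. The replicates are called biological in the methods, but nothing says how they were separated, so spread between them may be technical. No detection call accompanies these values, and the dim members (CP, LXN and TM4SF18) are limited by background.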
